A study of Mus musculus with 15 samples.

Results

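The ribosome footprints described here lie on mouse liver mRNAs whose 5′ untranslated region (5′UTR) is at least 600 nt long. A transcript was taken when its deposited 5′UTR length was at least 600 nt and when it had a mean of at least 10 reads per library over its 5′UTR, coding sequence (CDS) and 3′UTR. One transcript was kept per gene, the one with the highest mean. This gave 592 long 5′UTRs, among 11747 genes with any transcript at the same read minimum and 28167 transcripts in all. The tables held 1278 transcripts with a 5′UTR of this length, and 801 of them reached the read minimum.

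Livers came from wild-type male C57BL/6N mice aged 8 to 10 weeks. The mice were kept in 12 h of light and 12 h of dark for 2 weeks, moved to constant darkness for 24 h, and killed every 4 h from circadian time 0 (CT0, the start of the subjective day) to CT24. Whole liver was used, with 2 mice at each of 7 times, so 14 libraries entered every result. No mutant, treated or fed group was part of this set, and no total RNA library of these livers was analysed here, so mRNA amount and ribosome number per mRNA cannot be told apart. The titles of the last pair of libraries hold both CT00 and CT24, and its time label is CT00. This pair was fitted at hour 24. One library, CT16 replicate 2, held only even counts (100% of its nonzero values, against 45.7% to 50.02% in the other 13 libraries), and it was kept.

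In eukaryotic initiation the small ribosomal subunit loads at the cap and scans the 5′UTR until it meets a start codon in a favourable context. An AUG inside the 5′UTR that is followed in frame by a stop codon forms an upstream open reading frame (uORF), and a ribosome that translates one often does not go on to the main CDS. Long 5′UTRs are known from genes of growth control and transcription, and they are more likely than short ones to hold uORFs, introns and alternative promoters. In ribosome profiling, uORF translation appears as footprints upstream of the main start codon.

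The long 5′UTRs had a median length of 749 nt and reached 3180 nt, against a median of 147 nt over all 11747 genes. In 107 genes the 5′UTR was at least 1000 nt long, and in 108 it was longer than the CDS. The lengths of 503 of the 592 transcripts matched the RefSeq annotation of GRCm38.p6, and sequence features were read for these. Of the 503, 495 held at least 1 uORF (98.4%), with a median of 6 per 5′UTR and a highest value of 48 in *Lcor*, a nuclear receptor corepressor gene. Among 8761 other genes with matching lengths, 36.5% held a uORF, and among 1937 5′UTRs of 300 to under 600 nt, 81.4% did. Since length itself gives more chances for an ATG, the count per 100 nt is the fairer measure. It had a median of 0.731 in the long 5′UTRs and 0.505 in those of 300 to under 600 nt, and the median GC content was 58.1% against 61.5%.

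The sequences below are upstream ATGs of genes with the highest ratios of 5′UTR to CDS reads per nucleotide, with *Azin1* added after its values were seen. *Tshz1*, also among the highest, is left out because its annotated lengths differ from the files. The ratios of *Ptp4a1* and *Josd1* are limited by repeated sequence, as described later. All sequences were read from RefSeq GRCm38.p6. Each line shows up to 12 nt before and 15 nt after an upstream ATG, which is in capitals. The first upstream ATG with a purine at position -3 and a G at +4 is shown where there was one, and otherwise the first upstream ATG of the transcript, as in *Ptp4a1* and *Azin1*. *Armcx5* and *Gprasp1*, neighbours on the X chromosome, begin with the same exons and so share this ATG.
Mkks: gttctgatggttATGgtaccattaattggg
Armcx5 and Gprasp1: aatttgctagtcATGgcccttcatcttgtc
Ptp4a1: gcagctcactgcATGgtcgtctggtgcccc
Josd1: ccgctggcggtcATGgagcgctatccccgg
Uspl1: tgaagattggaaATGgtttgccactggttg
Extl3: gttggtagtggcATGgaggacggggctggc
Azin1: tccccgcagcctATGgcccaggccgccttg
The uORFs that start at these ATGs were 135 nt long in *Mkks*, 48 nt in *Armcx5* and *Gprasp1*, 108 nt in *Ptp4a1*, 63 nt in *Josd1*, 36 nt in *Uspl1*, 66 nt in *Extl3* and 54 nt in *Azin1*. The *Mkks* uORF lies at chr2:136885500-136885634 on the minus strand and the *Extl3* uORF at chr14:65078104-65078169 on the minus strand. The ATG of *Uspl1* lies inside the CDS of another annotated *Uspl1* transcript, so 5′UTR reads of this gene need not come from a uORF. The counts are totals per region, so reads were not placed on any upstream ATG or uORF shown here or below.

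Some 5′UTRs also held very short uORFs, shown whole because they leave room for only a few codons between start and stop, both in capitals. Positions are counted from 1 at the 5′ end of the 5′UTR.
Mkks, position 68: ATGTGA
Mkks, position 832: ATGctggttattgtcTGA
Mkks, position 914: ATGttcaaacacatgacagtgcaaTAA
Gprasp1, position 830: ATGgcgtggatttctggagccctgcttTAA
Azin1, position 463: ATGatagggggttccatctccTAA
Extl3, position 615: ATGgcgagcgatccgacgTGA
A uORF of start and stop only, like the first of these, was present in 142 of the 503 matched long 5′UTRs (28.2%), against 10.9% of those of 300 to under 600 nt. An upstream ATG with a purine at -3 and G at +4 was present in 302 of the 503 (60.04%), against 35.9%. Both shares are per 5′UTR and not corrected for length, so they follow in part from the choice of long 5′UTRs.

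For 2 genes with a strong daily rhythm described later, upstream ATGs chosen the same way are shown, again in capitals. These genes were picked after their values were seen.
Noct: cctgaggggcggATGcttgtcgcagccgcc
Gpcpd1: tcattattgacgATGgacagtttggcatcc
The *Noct* ATG opens a uORF of 435 nt at chr3:51224503-51224937 (plus strand). The *Gpcpd1* ATG lies inside the CDS of another transcript of that gene.

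Library totals ran from 40593197 to 90458783 counts. The long-5′UTR transcripts took 0.372% to 0.686% of them, with a median of 231976.5 CDS reads, 56900.5 5′UTR reads and 1917.5 3′UTR reads per library. Of 8 hepatocyte markers all were present, at a summed level of 38315 to 53169 counts per 1000000 counts of the TMM-scaled library (CPM). The summed markers of Kupffer cells (83.8 to 149), sinusoidal endothelium (111 to 171), stellate cells (96.6 to 144), cholangiocytes (11.03 to 24.3) and erythroid cells (56.6 to 117) were far lower, though none was at 0. Pancreatic acinar markers reached 3662 CPM in CT20 replicate 2, against 69.4 in the next highest library and a median of 2.86. Without CT20 replicate 2 the rhythmic genes described below numbered 64 in place of 67, and those with a denser 5′UTR 75 in place of 79. The markers *Hba-a1*, *Hba-a2*, *Amy2a5* and *Emr1*, an older symbol of *Adgre1*, were not found by name, and no marker gene is among the 592. The part that the composition of the tissue plays in the values below was not tested, and fewer cells of a type and less RNA per cell cannot be told apart in whole liver.

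The first comparison asked how densely ribosomes sat on long 5′UTRs relative to the CDS of the same transcript. Summed over the 592 genes, the 5′UTR carried 1.99 ± 0.190 CPM per kb (SD, n = 14 libraries), the CDS 3.22 ± 0.0838 and the 3′UTR 0.0311 ± 0.00382. The 5′UTR was thus at 0.620 ± 0.0634 of the CDS density and 64.9 ± 9.18 times the 3′UTR density. In each of the 14 libraries the order was CDS, 5′UTR, 3′UTR. The 5′UTR to CDS ratio was lowest in CT16 replicate 2, the library of even counts (0.471), and highest in CT12 replicate 2 (0.698). Of all reads on these transcripts, 16.1% to 22.1% lay in the 5′UTR, against 5.67% to 9.75% over all genes, a share that is not corrected for length and so follows in part from the choice of long 5′UTRs.

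Gene by gene, the ratio could be tested where both regions had a mean of at least 10 reads, which 418 of the 592 genes met. The other 174 include 156 with fewer than 10 mean reads in the 5′UTR, so the tested genes lean towards a used 5′UTR. The ratio was taken as log2(5′UTR density / CDS density) with a pseudocount of 0.5 reads. It was tested against 0 over the 14 libraries with limma and Benjamini-Hochberg adjustment over all 7640 transcripts. The CDS was denser in 208 genes (49.8% of the 418, against 60.0% of all transcripts tested and 59.6% with 1 transcript per gene) and the 5′UTR was denser in 79 (18.9%, against 13.4%). In 131 genes neither was called at an adjusted p under 0.05. The median log2 ratio was -0.50, against -0.86 over all transcripts tested. Over all 592 genes with reads pooled across libraries, the median was -0.59, and 189 genes (31.9%) were above 0. Among those with a mean of at least 10 CDS reads it was -0.69 in 558 long-5′UTR genes, with 29.4% above 0, and -1.46 in all 11386 genes, with 17.7% above 0.

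The median ratio was higher in each longer class of 5′UTR, with no test of the trend. It was -1.13 for 789 5′UTRs of 31 to 99 nt, -0.87 for 2912 of 100 to under 300 nt, -0.77 for 1512 of 300 to under 600 nt and -0.50 for the 418 long ones. The share with a denser 5′UTR was 11.7%, 11.9%, 15.8% and 18.9% in the same order. Genes of the shorter classes carried more CDS reads (medians of 1175, 459 and 273 against 169), so the same read minimum selects differently in each class, and the part of this in the trend was not tested. The ranges between the quartiles overlapped widely, from -1.33 to 0.23 for the long 5′UTRs and from -1.59 to 0.05 for those of 300 to under 600 nt.

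**Figure D1:**
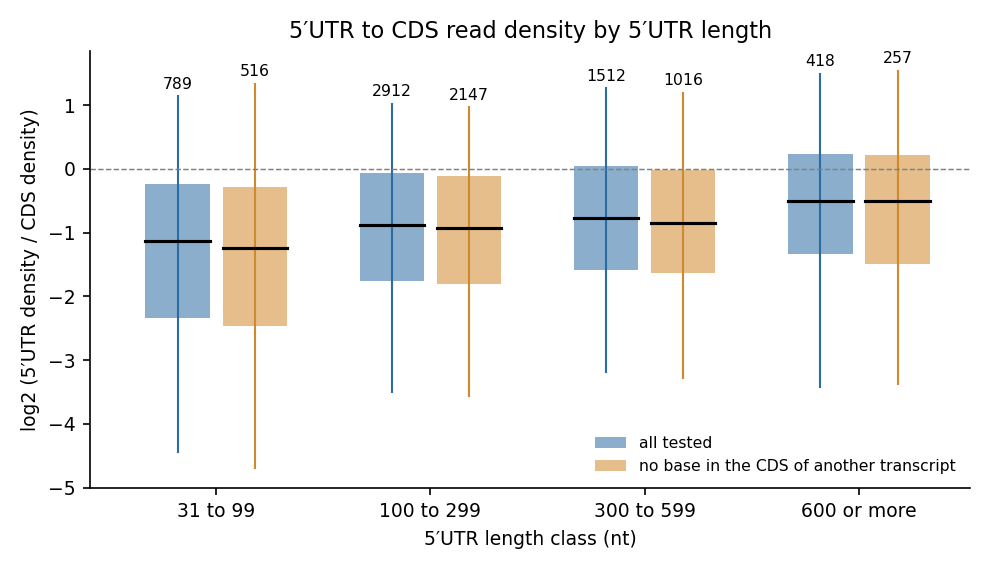
The vertical axis is log2 of 5′UTR over CDS read density and the horizontal axis the length class of the 5′UTR. Boxes span the quartiles, black lines mark the medians, thin lines run from the 5th to the 95th percentile, and the number of transcripts tested stands above each. The median is highest for 5′UTRs of 600 nt or more, at -0.50 for all 418 and -0.51 for the 257 without a base in another CDS, and the boxes overlap.

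A read was counted for every transcript that contains it. Of 132 long-5′UTR genes with another transcript of equal CDS length, 130 had identical CDS counts in all 14 libraries for such a pair. A base called 5′UTR in one transcript can therefore be read while a different transcript is translated. Of the 503 matched 5′UTRs, 136 (27.0%) shared at least 1 base with the CDS of another annotated transcript on the same strand, in 131 cases only of the same gene, and 56 shared at least 50% of their bases. For 5′UTRs of 300 to under 600 nt the first share was 18.5%. In the 48 tested genes with at least 50% shared bases the median log2 ratio was 0.05, close to equal density. In the 257 tested genes with no shared base it was -0.51, against -0.50 for all 418, with 47 genes 5′UTR denser (18.3%) and 129 CDS denser (50.2%). Over all 5422 tested transcripts with no shared base the median was -0.91, with 12.8% 5′UTR denser and 61.3% CDS denser.

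Per the study's methods, only exact matches at a unique location were used. How strictly this was applied is unclear, since *Ptp4a1* had CDS reads in every library although 0% of its CDS windows were unique, and the 5′UTR of *Lysmd1*, also at 0%, had 29.4 mean reads. Here a unique window is a stretch of 28 nt that occurs once in the genome. The share of windows that occur once in GRCm38.p6 had a median of 96.3% over the 503 5′UTRs and 87.0% over their CDS. Most of the loss in the CDS lay at exon junctions (median 11.4% of windows), which an unspliced genome alignment cannot place. In 17 genes under 50% of the CDS windows were unique. With density counted per unique window, in the 356 tested genes with at least 10% unique windows in both regions, the median log2 ratio was -0.55.

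Among the genes with the highest ratios the readings differ in how firmly they stand. *Mkks*, a chaperonin-like gene of the Bardet-Biedl syndrome group, stood out most clearly. Its 998-nt 5′UTR (chr2:136881236-136891406, minus strand, 3 exons, 17 uORFs over 60.8% of its bases) had 165 to 548 reads per library (median 351.5), while its CDS of 1717 nt had 28 to 54 (median 38.5). The lowest 5′UTR count was above the highest CDS count, and the 5′UTR was denser 15.3-fold (log2 ratio 3.93 ± 0.52, SD, n = 14; limma adjusted p = 1.37e-16). No base of it lies in another CDS, 95.2% of its windows and 95.8% of CDS windows were unique, and per unique window the log2 ratio was 3.94.

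*Extl3*, which encodes a glycosyltransferase of heparan sulphate synthesis, had 60 to 275 5′UTR reads (median 108) in 666 nt and 47 to 246 CDS reads (median 122) in 2765 nt. Similar numbers of reads thus fell on regions of very different length, and the 5′UTR was denser 4.16-fold in 14 of 14 libraries (log2 ratio 2.06 ± 0.64; limma adjusted p = 2.85e-10). Its 5′UTR (chr14:65077732-65098106, minus strand, 3 exons) has 12 uORFs, no base in another CDS and 92.4% unique windows.

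*Azin1* encodes antizyme inhibitor 1, a regulator of polyamine synthesis whose 5′UTR is known for translational control by polyamines. Its 753-nt 5′UTR (chr15:38501506-38519266, minus strand, 4 exons, 6 uORFs) had 408 to 1044 reads (median 675.5), against 267 to 852 (median 451.5) in the 1357-nt CDS. The 5′UTR was denser 2.59-fold in 14 of 14 libraries (log2 ratio 1.37 ± 0.36; limma adjusted p = 4.40e-11). It was the only one of the 4 tested genes from a list of stress-response and uORF-controlled genes with a denser 5′UTR. Of all transcripts tested, 13.4% had one, so this count says little about the list.

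Other genes near the top carry a measured limit. *Ptp4a1*, a phosphatase gene of the PRL family, had 800 to 2540 5′UTR reads (median 1080.5) and 35 to 287 CDS reads (median 95.5), a ratio of 9.49-fold (log2 3.25 ± 0.54; limma adjusted p = 2.42e-15). Yet 100% of its CDS windows and 98.7% of its 5′UTR windows occur more than once in the genome, so how its reads were divided between the copies is uncertain and its ratio cannot be read as a density. Its relative *Ptp4a2* (log2 ratio 1.39 ± 0.50) had 34.1% repeated CDS windows and 54.0% repeated 5′UTR windows. In *Josd1*, a deubiquitinase gene with a ratio of 6.74-fold, 79.1% of CDS windows were repeated and the CDS had 2 to 23 reads per library. Per unique window its log2 ratio was 0.52, against 2.75 per nucleotide.

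*Armcx5* and *Gprasp1* had ratios of 16.7-fold and 4.47-fold, with CDS reads of 0 to 25 and 12 to 49 per library. They share exons, which make up 54.0% of the 5′UTR of *Armcx5* and 24.8% of that of *Gprasp1*, so their 5′UTR reads are in part the same reads. In the 4 libraries where the log2 ratio of *Armcx5* lay above 5, up to 8.42, its CDS had 0 reads and the pseudocount sets the value. *Uspl1*, a SUMO protease gene, had a ratio of 6.02-fold (107 mean 5′UTR reads against 58.7 in the CDS), and 63.2% of its 5′UTR is CDS in another transcript. *Tshz1*, a zinc finger gene (log2 ratio 2.45 ± 1.88, from 0.68 to 8.46, the last in CT20 replicate 1 with 0 CDS reads), had annotated lengths that differ from the files, and its position is not given. The ratio of each of these was above 0 in 14 of 14 libraries.

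Genes with at least 75% unique windows in both regions, no shared CDS base and no exon of another gene numbered 227 among those tested. This subset was chosen after its values were seen. It holds *Mkks*, *Extl3* and *Azin1*. Its median log2 ratio was -0.48, with 39 genes 5′UTR denser (17.2%) and 111 CDS denser (48.9%). Over all transcripts tested, without this filter, the shares were 13.4% and 60.0%. Other examples were *Tsc22d4*, a leucine zipper gene (log2 ratio 1.91 ± 0.88), *Pcnx3* (1.90 ± 0.50), the zinc finger gene *Zfp664* (1.80 ± 0.77), the ataxin gene *Atxn1* (1.63 ± 0.77), the kinases *Mapk6* (1.58 ± 0.75) and *Map3k11* (1.53 ± 0.59), and *Smad6*, an inhibitor of BMP signalling (1.44 ± 0.95). Apart from *Pcnx3*, these other examples were picked after their values were seen. Of the 418 tested genes, the 5′UTR was called denser at least 2-fold in 41 (9.81%, against 6.47% of all 7640 transcripts) and at least 4-fold in 9 (2.15%, against 1.51%). In 35 of the 79 with a denser 5′UTR the ratio lay above 0 in 14 of 14 libraries (8.37% of the 418, against 4.83% of all transcripts).

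**Figure D2:**
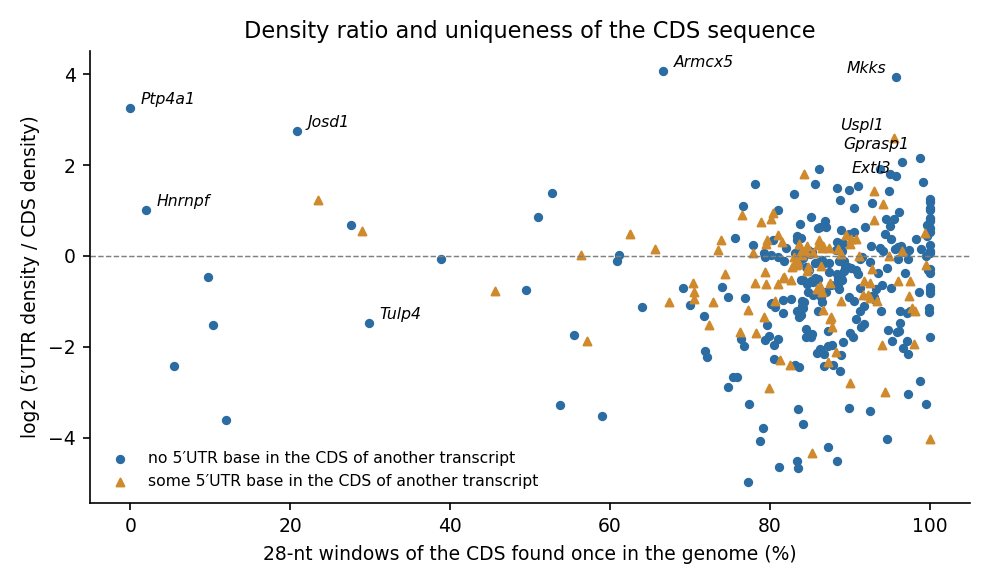
Each point is one of the 361 tested genes with matching annotation. The horizontal axis gives the percentage of 28-nt CDS windows found once in the genome, the vertical axis log2 of 5′UTR over CDS density, and orange triangles mark 5′UTRs that share a base with the CDS of another transcript. *Mkks* (3.93) and *Extl3* (2.06) lie at over 95% unique windows, whereas *Ptp4a1* lies at 0 and *Josd1* at 20.9%.

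A further 18 genes had at least 10 mean reads in the 5′UTR but not in the CDS and were not tested. *Slc35a4*, a solute carrier gene whose 5′UTR is known to encode a separate small protein, had 50 to 133 5′UTR reads per library and 0 to 16 CDS reads, and 61.6% of its CDS windows were repeated. *Pard6a*, a cell polarity gene, had 9 to 65 5′UTR reads and 0 to 18 CDS reads, with 77.0% of its 5′UTR in the CDS of another transcript.

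At the other end, the CDS was denser by at least 4-fold in 57 of the 418 genes (13.6%, against 19.9% of all transcripts) and by at least 16-fold in 15 (3.59%, against 3.35%). Among the 418 tested genes the lowest ratio belonged to *Ptprd*, a receptor phosphatase, with 0 to 22 reads (median 9.5) in 889 nt of 5′UTR and 2220 to 5190 (median 3243.5) in the CDS, a 98.1-fold difference (log2 ratio -6.62 ± 1.77; limma adjusted p = 6.27e-11). Where its 5′UTR had 0 reads the pseudocount sets the value, so the fold is approximate. *Ly6e*, a GPI-anchored surface protein, followed with 14 to 148 5′UTR and 2624 to 5583 CDS reads (83.5-fold). *B4galt1*, a galactosyltransferase (50.5-fold), and *Ubl5*, a ubiquitin-like protein (34.3-fold), came next. For these 4 the lengths in the files differ from the annotation, so whether the long 5′UTR is the one used in liver could not be looked up.

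*Acsl5* and *Tmem176b* have matching annotation. *Acsl5*, an acyl-CoA synthetase, had 54 to 205 reads (median 91.5) in its 828-nt 5′UTR and 5207 to 11093 (median 8142.5) in its CDS, 31.5-fold denser (log2 ratio -4.98 ± 0.38; limma adjusted p = 2.72e-18). *Tmem176b* had 45 to 280 5′UTR and 2567 to 7320 CDS reads (25.5-fold). The 5′UTR of *Acsl5* holds 6 uORFs over 38.8% of its bases, and that of *Tmem176b* holds 3, yet both were sparse in reads. Only 3.51% of the 5′UTR of *Acsl5* and 42.3% of that of *Tmem176b* lie in exons of other transcripts of the gene. CDS reads of those transcripts can enter the CDS counts, and whether the long 5′UTR is the one used in liver was not tested.

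**Figure D3:**
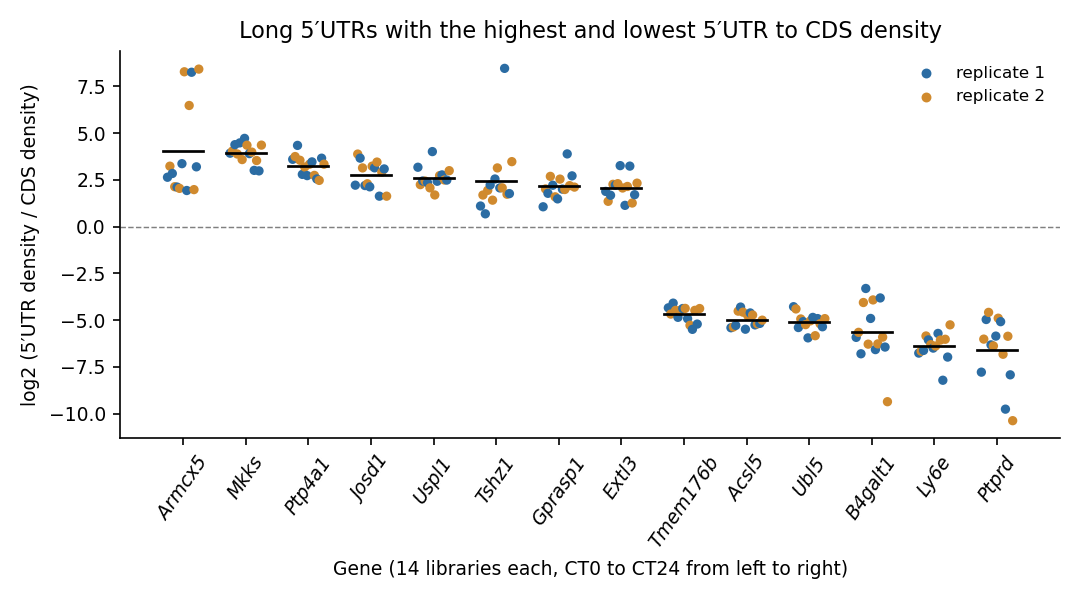
Points are the 14 libraries of each gene in order of circadian time, coloured by replicate, with log2 of 5′UTR over CDS density on the vertical axis and black lines at the means. The 8 highest genes lie above 0 in every library and the 6 lowest below 0, from *Armcx5* at 4.06 to *Ptprd* at -6.62. The spread is widest where one region has few reads, as in *Armcx5*, *Tshz1* and *Ptprd*.

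The 5 genes with the most reads over the whole transcript were *Nudt7*, *Apof*, *Sardh*, *Acsl5* and *Gls2*. *Nudt7*, a peroxisomal coenzyme A hydrolase, also had the most 5′UTR reads of the 592 genes, 1964 to 8026 per library (median 5714) in 1760 nt with 24 uORFs (chr8:114133574-114135333, plus strand, 1 exon). Its CDS of 787 nt was still 6.91-fold denser (log2 ratio -2.79 ± 0.43). All of the *Nudt7* 5′UTR lies in exons of other transcripts of the gene and some of it in their CDS, so its 5′UTR reads may include CDS reads. *Apof*, an apolipoprotein, had 806 mean 5′UTR reads against 21081 in the CDS (20.7-fold). *Sardh*, which oxidises sarcosine, had 1794 against 14816 (2.06-fold denser in the CDS). *Gls2*, the liver glutaminase, had nearly equal densities (log2 ratio 0.14 ± 0.15), and 86.9% of its 5′UTR is CDS in another transcript. Its call (limma adjusted p = 0.0417) was lost in 12 of 23 other settings, with values up to 0.156.

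Of the 5 longest 5′UTRs, 4 had a mean under 10 reads. That of *C1qtnf5* (3180 nt) had 6.00 mean reads and lies wholly in exons of *Mfrp*, so its reads cannot be assigned to 1 gene. *Lcor* (2860 nt) had 0 to 14 reads per library against 46 to 141 in the CDS, *Pcdh17* (2532 nt) had 4.29 mean reads, and *Zmynd8* (2200 nt) had 2.64 against 341 in the CDS. *Lrif1* (2190 nt) had 79.6, and 71.1% of it is CDS in another transcript. All 14 genes with no 5′UTR read in any library are members through their CDS or 3′UTR alone.

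At the length limit, the 2 genes just inside, *Lgals8* and *Sema4d* (600 nt each), had pooled log2 ratios of -2.16 and 1.11. The 2 transcripts just outside, of *Msra* and *Dlgap4* (1 nt shorter), had -4.67 and -0.24. *Dlgap4* is also among the 592 through a transcript with a 5′UTR of 793 nt.

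The ratio followed the sequence features only weakly. In the 257 tested genes with no base in another CDS, Spearman's rho of the log2 ratio was 0.14 with uORFs per 100 nt, 0.15 with the percentage of bases in uORFs, 0.15 with the number of ATGs in the favourable context, 0.05 with length and 0.02 with GC content. These are across genes, which are not independent replicates, and are given as descriptions. The rho with the mean CDS count was -0.48, and there the CDS reads enter both values. By uORF number the medians were -0.71 for 80 genes with 1 to 3 uORFs, -0.38 for 114 with 4 to 8 and -0.15 for 59 with 9 or more, and the share of genes with a denser 5′UTR was 11.2%, 18.4% and 28.8%. The 4 genes without a uORF all had a denser CDS, where 61.3% of all tested transcripts with no shared base did, and 4 genes are too few to compare. The quartiles of these groups overlapped, from -1.63 to 0.06 in the first and from -1.65 to 0.66 in the last. Over all 257 genes the rho with the number of uORFs was 0.13. Median CDS reads fell over the same 3 groups, from 210 to 186 and 119, and the part of this in the medians was not tested.

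The second comparison asked which of these transcripts varied over the circadian day. A cosine with a 24-h period was fitted to the counts of all reads of a transcript with edgeR's quasi-likelihood test, over all 17299 transcripts at the read minimum. Of the 592 genes, 67 were rhythmic at an adjusted p under 0.05 (11.3%), and the share over all transcripts was 11.3%, so long-5′UTR genes were called at the share of all transcripts (11.2% with 1 transcript per gene). Their peak-to-trough range on the log2 scale had a median of 0.98 and ran from 0.41 to 5.57. For CDS reads alone 58 of 558 genes were called (10.4%, against 10.8% overall and 10.9% with 1 transcript per gene), and 51 of them were among the 67.

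Peaks fell at 2 main times of day. From CT9 to CT15, around dusk, 26 of the 67 peaked (38.8%, against 29.8% of all 1947 rhythmic transcripts), and from CT21 to CT3, around dawn, 20 did (29.9%, against 28.6%). From CT3 to CT9 11 peaked (16.4%, against 13.97%), and from CT15 to CT21 10 did (14.9%, against 27.6%). These times depend on the scaling. TMM factors, which make up for a few very abundant transcripts, were lowest in CT12 replicate 2 (0.736) and highest in CT0 replicate 1 (1.46). With the total count as scale only 50 genes were called (8.45% of the 592, against 8.25% of all transcripts), 36 of them the same genes. Of the 50, 37 (74.0%) peaked around dawn and 5 (10.0%) around dusk, against 65.2% and 5.54% of the 1427 transcripts called on that scale. Which scale is nearer to ribosome number per cell was not tested, so peak times of weak rhythms should be read with it in mind. The genes named next with a range above 2 on the log2 scale kept their call under both scales.

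**Figure D4:**
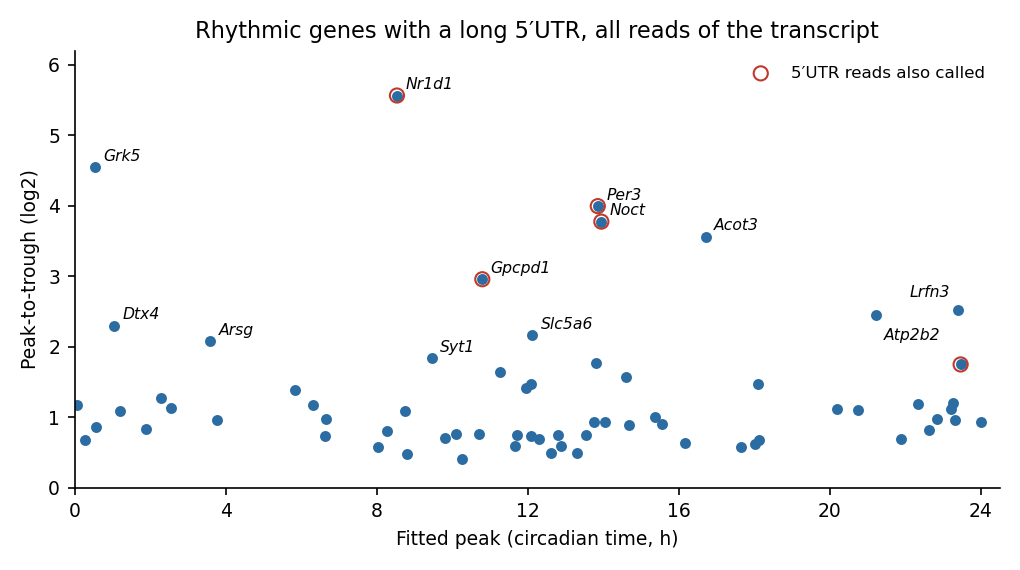
Each of the 67 rhythmic genes is plotted by the fitted peak of all its reads in circadian hours and by its peak-to-trough range in log2 units. Red circles mark the 5 genes whose 5′UTR reads alone were also called. *Nr1d1* has the widest range (5.57), and most genes lie below 2.

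A list of clock genes held 4 with a long 5′UTR, *Nr1d1*, *Per3*, *Noct* and *Csnk1e*, and the first 3 were rhythmic, where 11.3% of all transcripts were. *Cipc*, which encodes a CLOCK-interacting protein, also has a long 5′UTR but was not on the list, and it was not called (edgeR adjusted p = 0.281). *Nr1d1* encodes REV-ERBα, the nuclear receptor that represses *Bmal1*. Its reads over 5′UTR, CDS and 3′UTR were 69.8 and 49.5 CPM in the 2 mice at CT8, 38.0 and 19.4 at CT4, and 14.6 and 26.3 at CT12. They were 1.89 and 1.98 at CT0 and 1.43 and 1.72 at CT20, so both CT8 mice were above every other library. The fitted peak was at 8.54 h and the range 5.57 on the log2 scale (edgeR adjusted p = 2.66e-07). *Nr1d1* lies antisense to the end of *Thra*, and whether the counting used the strand is not given in the sources used here.

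*Per3* encodes a PERIOD protein. Its reads were sparse, with 4.97 and 3.65 CPM at CT12, 2.17 and 3.35 at CT16, and 0.0620 and 0.0759 at CT4. The fitted peak was at 13.9 h and the range 4.00 (edgeR adjusted p = 0.000121). *Noct* encodes Nocturnin, a phosphatase that acts on NADP(H) and peaks in the evening in many tissues. It had 24.8 and 28.6 CPM at CT12, 14.4 and 11.9 at CT16, and 0.914 and 0.531 at CT4. Both CT12 mice were the highest and both CT4 mice the lowest of the 14, with a fitted peak at 13.9 h and a range of 3.78 (edgeR adjusted p = 1.16e-05). *Csnk1e*, a kinase of PERIOD proteins, was not called (adjusted p = 0.823), and its long-5′UTR transcript had 0.50 mean reads in the 5′UTR.

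*Grk5*, a kinase of G protein-coupled receptors, ran opposite to *Noct*. It had 3.34 and 6.91 CPM at CT0, 3.66 and 6.79 at CT4, and 4.59 and 3.75 at CT24, but 0.321 and 0.0174 at CT12. All 6 libraries of CT0, CT4 and CT24 were above all 8 others. The peak was at 0.54 h with a range of 4.55 (edgeR adjusted p = 5.27e-05). *Gpcpd1*, which breaks down glycerophosphocholine, had 131 and 82.4 CPM at CT12, 57.0 and 32.02 at CT8, and 9.31 and 12.6 at CT0, with a peak at 10.8 h and a range of 2.96 (adjusted p = 5.96e-06).

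*Acot3*, a peroxisomal acyl-CoA thioesterase, had 3.42 and 2.07 CPM at CT16 and at most 1.70 in any other library (peak at 16.7 h, range 3.56, edgeR adjusted p = 0.00274). Nearly all of its reads lay in the CDS, with 1.07 mean reads in the 5′UTR, and 35.4% of its CDS windows occur again elsewhere in the genome. *Lrfn3*, a synaptic adhesion gene, had its highest mean at CT0 (5.21 and 6.56) and its lowest at CT12 (0.420 and 0.435), with a range of 2.53 (adjusted p = 0.00239). *Atp2b2*, a plasma membrane calcium pump, had 2.61 and 1.44 CPM at CT20 and 0.210 and 0.0696 at CT12 (range 2.45, adjusted p = 0.0266). The call of *Atp2b2* was lost without CT8 replicate 1 (0.0715), without CT12 replicate 1 (0.0586) and without CT20 replicate 1 (0.0790).

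Of 13 long-5′UTR genes in a list of insulin and growth factor signalling, 4 were rhythmic, where 11.3% of all transcripts were. *Pik3r1*, the regulatory subunit of PI 3-kinase, peaked at 14.7 h (range 0.89, edgeR adjusted p = 0.00730), and *Fgfr1*, a fibroblast growth factor receptor, at 11.3 h (range 1.64, adjusted p = 0.0151). *Fgfr2* (0.59) and *Vegfa* (0.63), the angiogenic growth factor, had adjusted p of 0.0458 and 0.0419, and each lost its call in more than 10 other settings, with values up to 0.682 for *Fgfr2* and 0.108 for *Vegfa*. With the total count as scale *Pik3r1* (0.136) and *Fgfr1* (0.110) were not called either, and *Fgfr1* lost its call without CT12 replicate 1 (0.0964). A denser CDS was called in 7 of the 12 tested genes of this list and a denser 5′UTR in 0, against 60.0% and 13.4% of all transcripts tested.

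Of 10 liver transcription factors and nuclear receptors, 2 were rhythmic, a count near the 11.3% of all transcripts. *Gata4* peaked at 22.8 h (range 0.98, adjusted p = 0.0143, and 0.0531 without CT12 replicate 1), and *Nr2f6* at 1.20 h (range 1.09, adjusted p = 0.0234, and 0.0634 without CT0 replicate 2). *Jun*, an AP-1 subunit in the stress list, peaked at 18.1 h (range 1.47, adjusted p = 0.0199). It lost its call without either CT8 library or either CT16 library, with values up to 0.0769. *Azin1* peaked at 12.9 h with a range of 0.59 (adjusted p = 0.0231) and was not called in 6 other settings, among them the total count (0.568), leaving out CT0 replicate 1 (0.0530), CT12 replicate 2 (0.0878) or either CT24 library (0.0577 and 0.0522). *Ptp4a1* peaked at 15.4 h (range 1.00, adjusted p = 0.000752, and 0.0568 with the total count). Because of its repeated windows, it is uncertain which genome copies these reads came from.

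The lists and families, chosen with earlier results of these data known, differed in how many long 5′UTRs they hold. Long 5′UTRs made up 5.04% of the 11747 genes, 18.1% of 72 insulin and growth factor genes (13), 14.8% of 27 clock genes (4), 13.0% of 100 phosphatases (13), 12.5% of 80 liver transcription factors and nuclear receptors (10), 12.5% of 48 stress and uORF-controlled genes (6) and 3.12% of 64 translation and RNA-binding regulators (2). By gene symbol, solute carriers had 14 of 222, zinc finger and other DNA-binding families 30 of 385, ubiquitin ligases and deubiquitinases 18 of 246, protein kinases 10 of 121 and small GTPases with their regulators 6 of 116. No test was made of these shares. A denser 5′UTR was called in 18.9% of the 418 tested genes and 13.4% of all transcripts. By family it was called in 4 of 12 phosphatases, 2 of 9 kinases, 3 of 15 ubiquitin genes and 5 of 20 DNA-binding genes. The phosphatases called include *Ptp4a1* and *Ptp4a2* with their repeated windows. It was called in none of 6 tested solute carriers, 4 small GTPases, 3 clock genes, 8 liver transcription factors and 12 growth factor genes. With so few tested genes, the lack of a call does not set these lists apart.

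The third comparison asked whether footprints in the long 5′UTR keep the time of the CDS. For 5′UTR reads alone, 436 genes had a mean of at least 10 and 5 were rhythmic (1.15%, against 1.14% of 7697 transcripts and 1.12% with 1 transcript per gene), namely *Nr1d1*, *Gpcpd1*, *Noct*, *Per3* and *Tmie*. A further 40 reached an unadjusted p under 0.05, for 45 in all (edgeR, against 8.98% of all transcripts). 

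In *Nr1d1* the 5′UTR (629 nt, 1 exon) had 17.7 and 12.2 CPM at CT8, 9.31 and 5.20 at CT4, and 0 and 0.468 at CT20. The 5′UTR peak was at 8.40 h and the CDS peak at 8.56 h, 0.158 h apart with a standard error of 0.695 h, and the ranges were 5.78 and 5.58. Standard errors of such differences, here and below, treat the 2 regions as independent. Both regions were counted in the same libraries, so these errors ignore that pairing. Per kb the 2 regions were close (log2 ratio -0.31 ± 1.41, adjusted p = 0.372). In *Noct* the 5′UTR (chr3:51224447-51225103, plus strand, 1 exon, 657 nt) had 5.33 and 3.70 CPM at CT12 and 0.124 and 0.0190 at CT4. Its peak was at 13.97 h and that of the CDS at 13.93 h, 0.0372 h apart with a standard error of 0.996 h, and the CDS was 3.13-fold denser (log2 ratio -1.65 ± 0.80, limma adjusted p = 1.97e-07). Neither 5′UTR shares a base with another CDS.

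In *Gpcpd1* the 5′UTR reads peaked at 10.6 h and the CDS reads at 10.9 h, and in *Per3* at 13.3 h and 14.2 h. Here 68.9% of the 5′UTR of *Gpcpd1* (chr2:132550476-132578248, minus strand, 7 exons) and 66.2% of that of *Per3* (chr4:151029158-151044665, minus strand, 9 exons) are CDS in other transcripts of the same gene. Equal timing in these 2 genes is therefore partly a comparison of CDS with CDS.

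*Tmie*, a transmembrane gene known from the inner ear, had few CDS reads. Its 5′UTR of 1163 nt had 48 to 388 reads per library and its CDS only 3 to 34. The 5′UTR reads were 4.20 and 5.21 CPM at CT0, 6.01 and 3.03 at CT4, 0.925 and 0.835 at CT12, and 4.34 and 5.17 at CT24, and both CT12 mice were the lowest of the 14. The 5′UTR peaked at 23.7 h with a range of 1.85 (edgeR adjusted p = 0.0287), while the CDS was not called (adjusted p = 0.336). The fitted CDS peak was at 20.3 h, 3.40 h before that of the 5′UTR with a standard error of 1.79 h. The 5′UTR call was lost in 8 of 22 other settings: without CT0 replicate 2 (0.0617), CT8 replicate 1 (0.0519) or 2 (0.0655), CT12 replicate 1 (0.147) or 2 (0.148), CT20 replicate 2 (0.0511), CT24 replicate 2 (0.0510) or both CT24 libraries (0.0649). The call on all reads of *Tmie* (adjusted p = 0.00426) held in 23 of 23. The ratio itself gave an unadjusted p of 0.0510 and an adjusted p of 0.787 (limma), so a difference between the 2 regions was not shown. Its annotated lengths differ from the files.

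**Figure D5:**
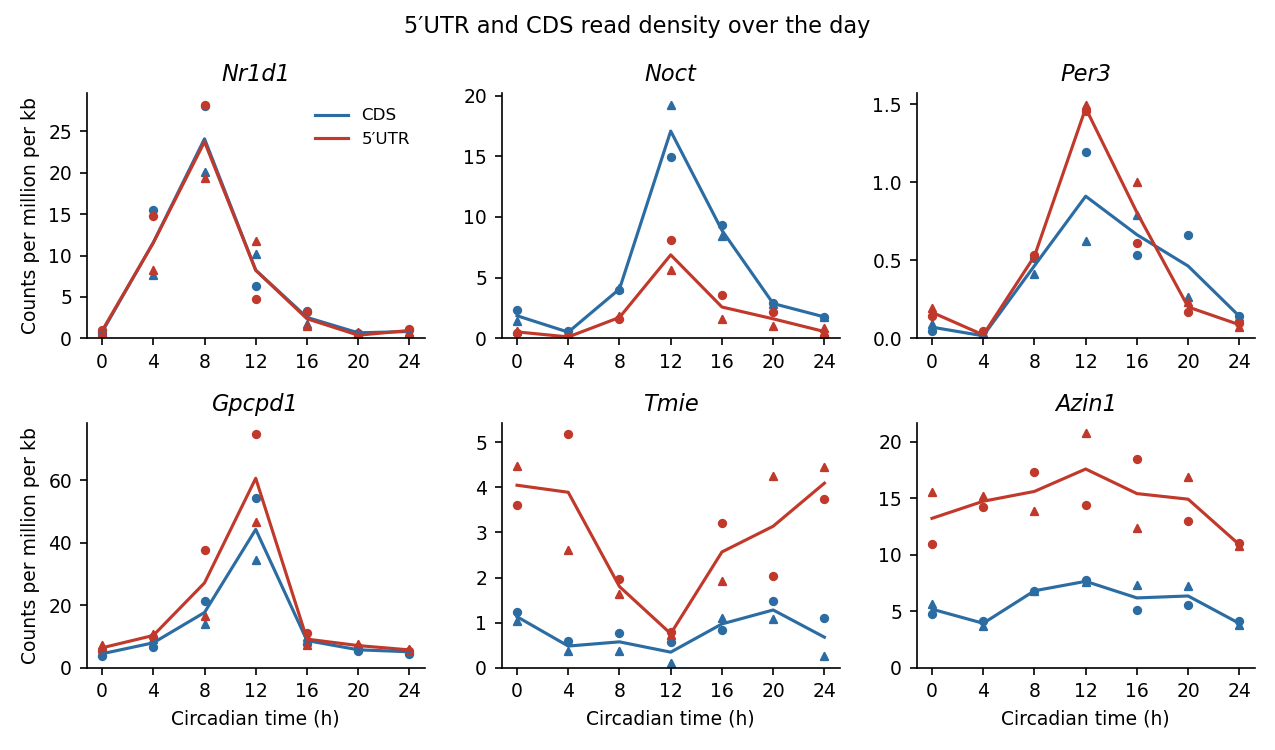
CPM per kb of region are plotted against circadian time for the 5 genes with rhythmic 5′UTR reads and for *Azin1*. Blue is the CDS and red the 5′UTR, circles are replicate 1, triangles replicate 2 and lines the means of 2 mice. In *Nr1d1*, *Noct*, *Per3* and *Gpcpd1* both regions are highest at CT8 or CT12, while in *Tmie* the red line is lowest at CT12 and the blue line stays low.

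Over all genes with an unadjusted p under 0.05 in both regions, 26 in number, the 5′UTR peak came 0.31 h before the CDS peak at the median, with differences from -4.70 to 4.68 h. It was within 2 h in 19 genes (73.1%), over 6 h in 0, earlier in 16 (61.5%) and later in 10. The 26 are 6.22% of the 418 genes tested in both regions. Of all 7640 transcripts, 453 (5.93%) met the same condition, with a median of -0.24 h, 73.5% within 2 h, 2.65% over 6 h and 54.5% with the 5′UTR earlier. These genes were chosen for a rhythm in both regions, no test was made of the median, and the share within 2 h lay near that of all transcripts.

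A cosine fitted directly to the log2 density ratio (limma) gave 0 rhythmic genes of 418, and 0.0% of all 7640 transcripts. At an unadjusted p under 0.05 there were 22 of the 418, against 5.07% of all transcripts. An edgeR test of the interaction of region and time gave 0 genes too, with 10 at an unadjusted p under 0.05, against 3.85% of all transcripts. The 8 genes with the smallest p-values were *Tulp4* (0.0113), *Tex264* (0.0118), *Epb41* (0.0149), *Pcnx3* (0.0189), *Nbr1* (0.0190), *Senp6* (0.0212), *Rnf168* (0.0258) and *Ppp1r16a* (0.0260), each with an adjusted p of 0.787. Their fitted ranges, from 1.02 in *Pcnx3* to 4.04 in *Tulp4* on the log2 scale, rest on 13.4 mean 5′UTR reads in *Tulp4*, whose CDS windows are 63.5% repeated in the genome, and 147.6 in *Pcnx3*. *Tex264* and *Nbr1* encode receptors of selective autophagy, *Senp6* a SUMO protease and *Rnf168* a ubiquitin ligase of the DNA damage response, and none of them passed the test. With 2 mice per time, the lack of calls does not show that the ratio was constant over the day.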

How the data were processed

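Ribosome profiling libraries of whole liver were sequenced from fragments of 26 to 34 nt, pelleted through a cushion with cycloheximide. Per the study's methods, reads were aligned with Bowtie2 2.1.0.0 to rRNA and then to mm10, exact matches were extracted with SAMtools 0.1.19.0, reads at a unique location were used, and reads of 26 to 32 nt were assigned to the base at the A site. The authors deposited whole-number counts per transcript for 5′UTR, CDS and 3′UTR with their lengths, not normalized.

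Here counts were scaled by TMM (edgeR 4.0.16) and fitted with a 24-h cosine by its quasi-likelihood test. Log2 density ratios (pseudocount 0.5) were tested with limma 3.58.1, and p-values were adjusted by Benjamini-Hochberg over all transcripts. DESeq2 1.42.0, JTK_CYCLE, other scalings, minimums and left-out libraries were alternatives. For JTK_CYCLE alone, p-values were adjusted only over the peak times tried per transcript. Phase errors came from least squares, and those of phase differences combined the errors of both regions as if independent. The scripts were tested on simulated data. Sequences were read from GRCm38.p6 with pysam 0.24.0, with tolerance of 1 nt per exon in length. Reads carry no molecular identifiers. Mice are the replicates (2 per time).

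Named genes were the 8 highest and 6 lowest density ratios, the 8 widest called rhythms, the 8 smallest p-values for the ratio rhythm, the 5 longest 5′UTRs, the 5 genes with most reads over the whole transcript, genes of the lists, and the nearest to the length limit. Of the 592, 13 carry no symbol. The members and lists were chosen with earlier results of these data known. The sample with a second run of CT16 replicate 2 was not analysed here. One upstream sequence is not reported here.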

Additional observations from a re-analysis of the deposited data

How the results depend on the processing

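Long-5′UTR genes had a median of 33.0 mean 5′UTR reads, and with 2 mice per time a lack of calls does not show that a rhythm of the 5′UTR or of the ratio is absent. Rhythmic genes numbered 67 for all reads, 126 with JTK_CYCLE on total counts (22.2% of all transcripts called), 100 with JTK_CYCLE on TMM values (17.7%) and 94 with DESeq2's likelihood ratio test (14.7%). Of the 67, JTK_CYCLE called 37 on total counts and 56 on TMM values. The p-values of JTK_CYCLE were adjusted only for the peak times tried within each transcript, not over transcripts. Its counts therefore stand at a looser threshold than the 67 and cannot be set beside them directly. Without 1 library in turn the number ran from 53 to 74, for CDS reads from 44 to 64 (58 in all), for 5′UTR reads from 4 to 6 (5 in all) and for the ratio it stayed at 0. Genes with a denser 5′UTR numbered 72 to 84 and with a denser CDS 200 to 210 in the same way, and the median log2 ratio ran from -0.52 to -0.46.

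Restricting the genes lowered the counts by construction. The denser 5′UTR and the denser CDS numbered 47 and 129 in 257 genes without a base in another CDS, 36 and 88 in 187 genes with 1 transcript, 17 and 37 in 79 genes with a 5′UTR of at least 1000 nt, and 39 and 111 in the 227 genes of the subset chosen after seeing the data. With a minimum of 1 mean read in place of 10 the median log2 ratio was -0.73, since genes with few 5′UTR reads then enter. *Nbr1*, called at an adjusted p of 0.0368 for all reads and 0.0489 for the CDS (ranges 0.41 and 0.40), moved its peak by over 6 h with the total count as scale, where the ranges were 0.0803 and 0.0967 and neither was called.

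Libraries of different times share only a replicate number, which was not found to pair the mice. Over 21 pairs of times, deviations of same-numbered libraries correlated from -0.06 to 0.16, with 4 above 0.1. With a replicate block the rhythmic genes numbered 62 for all reads, 57 for the CDS, 5 for the 5′UTR and 0 for the ratio, and 80 had a denser 5′UTR.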
